A study of Mus musculus with 12 samples.

Results

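The genes described here are 203 solute carrier genes, those with symbols that begin with Slc or Slco, whose RNA was detected in the mouse yolk sac. The arrays named 336 such genes. A gene was taken when the scanner software marked its Cy5 signal, the yolk sac channel, as well above background in every replicate of 1 group or more, and 215 genes met this. Another 12 were left out by name: Slc4a1, Slc9a3r1, Slc25a37, Slc40a1, Slc11a2, Slc27a2, Slc27a4, Slc2a1, Slc2a3, Slc16a3, Slc38a4 and Slc22a18. The 203 genes are 203 of the 13943 genes measured by the same criterion. Detection was thus what chose them, and it is given as a description: 176 were well above background in all 4 groups, 12 in 3 groups, 6 in 2 groups and 9 in 1 group. The 9 genes detected in 1 group only had mean Cy5 signals of 77.2 to 125.5 intensity units (median 91.5), and 8 further Slc genes that just missed the criterion had 46.1 to 102.3 (median 77.4). The label holds for nearly all of the genes, but 3 carry an Slc name and encode no transporter: Slc4a1ap, Slc7a6os and Slc9a3r2. A further 32 detected genes have a current Slc symbol but another name in the files, and are no members of the set. One of them, Slc51a (Osta in the files), which encodes the alpha subunit of a bile acid and steroid exporter, is given below for comparison.

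RNA came from whole yolk sacs of CD1 background at embryonic day 8.5 (E8.5) and E9.5. At each stage 3 biological replicates were wild type and 3 were homozygous for the V1068G substitution in Arid1a, also called Baf250a, a subunit of SWI/SNF chromatin-remodelling complexes whose ARID domain binds DNA. Each of the 12 samples was labelled with Cy5 and hybridized with a common Cy3-labelled reference, RNA of whole neonatal wild-type animals of mixed 129Sv and C57BL/6 background. The study asks what the ARID substitution does to gene expression, and whether a sample was 1 yolk sac or a pool is not stated in the labels. Every cell of the mutant yolk sac carries the substitution, so the layers of the tissue cannot be separated by genotype. A change of a base leaves the Arid1a transcript in place, and its level therefore checks no label.

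Solute carriers move sugars, amino acids, vitamins, ions, metals, lipids and metabolites across the plasma membrane and the membranes of organelles, as uniporters, symporters coupled to sodium or protons, or exchangers. In the midgestation rodent conceptus the yolk sac is the main organ of uptake before the placenta takes over. Its visceral endoderm, a polarized epithelium with a brush border, takes up nutrients from the maternal side and passes them to the mesoderm, blood islands and vessels beneath, and in this it shares many transporters with the proximal tubule of the kidney, the intestine and the liver. Mitochondrial carriers (Slc25) and transporters of nucleotide sugars into the Golgi (Slc35) serve every cell.

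Values below are log2 ratios of yolk sac over neonatal reference on 1 array. A difference between groups is a difference of mean log2 ratios, given with its standard error (SE) from limma's moderated fit over all 13943 genes and 12 arrays, and an adjusted p (Benjamini-Hochberg over all genes) under 0.05 counts as a change. Between 46.7% and 50.1% of probes were well above background in Cy5, and the median SE of a difference was 0.0675. The number of arrays limits the precision. Genes named for a change were taken mainly from called genes whose arrays did not overlap between the groups compared. For them the lack of overlap was fixed by this choice and is no support of its own. Arrays were scanned in 3 sets of 4, 1 array of each group and the same replicate number in each set. Each group kept the same array position in all 3 sets, and the effects of position and group cannot be told apart. Visceral endoderm markers (Afp, Ttr, Apoa1, Apob, Rbp4, Cubn, Amn and Lrp2) were all measured. Some libraries stood apart in markers of other tissues or of sex. The trophoblast gene Prl4a1 had log2 ratios of 5.69 in mutant E8.5 replicate 3, 4.31 in wild-type E9.5 replicate 3 and 3.74 in mutant E9.5 replicate 3, against 0.26 to 1.53 on the other 9 arrays. Xist, the RNA of the inactive X chromosome of female cells, read -4.01 in mutant E8.5 replicate 2, -4.18 in mutant E8.5 replicate 3 and -4.03 in wild-type E9.5 replicate 2, against -1.98 to -0.52 elsewhere. The Y-linked gene Ddx3y was highest on the same arrays (0.48, 0.37 and 0.44, against -0.46 to 0.15). Arrays low in Xist were thus 2 of 3 mutant and 0 of 3 wild-type arrays at E8.5, and 0 of 3 and 1 of 3 at E9.5. The heart gene Myl7 read 0.01 for the second and -1.47 for the third wild-type E8.5 replicate, against -3.14 to -2.50 on the other 10 arrays.

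In mutant yolk sac a small set of transporter genes differed from wild type, by less than 2-fold each in the main fit. That limit depended on the settings. Among genes called at the same stage in the main fit, the largest log2 difference over the alternatives was 1.1747 at E8.5, for Slc22a4. At E9.5 it was 1.0958, for Slc5a4b, and both are past 2-fold. Slc5a4b was not called at E8.5 but reached 1.3375 there. Higher at both stages were Slc22a6, the renal-type organic anion transporter OAT1, Slc23a3, an orphan relative of the vitamin C transporters, and Slc7a7, the light chain of a cationic amino acid exchanger of epithelia. At E9.5 the sodium-coupled sugar transporter family genes Slc5a4b and Slc5a9 were also higher, while Slc16a9, a monocarboxylate transporter family member, Slc35f2, Slc6a6 (taurine), Slc6a8 (creatine) and Slc19a1 (reduced folate) were lower.

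At E8.5, 5 of the 203 genes rose in the mutant (2.46%) and 0 fell, where 0.703% of all genes tested rose and 0.717% fell. Unadjusted p was under 0.05 for 45 of the 203 in either direction and for 1721 of all 13943. At E9.5, 7 rose (3.45%) and 5 fell (2.46%), against 0.897% and 1.08% of all genes. The median difference of the 203 genes was 0.018 at E8.5 and 0.0083 at E9.5, beside 0.0024 and -0.0006 for all genes. The 3 genes higher at both stages are 60% of the E8.5 rises and 42.9% of the E9.5 rises, and no gene was called in opposite directions. The stages share no yolk sac array, but they share the common reference and each gene's estimate of spread over all 12 arrays. Their calls are thus not independent, and the same overlap over all genes was not counted. For the difference between the mutant effects at E9.5 and E8.5, limma called 0 of the 203 genes and 0% of all genes, 23 of the 203 had an unadjusted p under 0.05, and the lowest adjusted p was 0.268 (Slc5a4b). A call at 1 stage therefore does not show a difference between the stages.

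The counts depended on the arrays and on the scaling. Calls over all genes under the alternatives were not set beside them, so a loss particular to the transporters is not shown. At E8.5 the count of 5 became 3 without wild-type replicate 1 and 2, 1 and 2 without mutant replicates 1, 2 and 3 in turn. Without wild-type E8.5 replicate 2, the array high in Myl7, it was 6, of which 3 rose and 3 fell. The count was 0 without the 3 arrays high in Prl4a1, 0 with Xist, which differed between the genotypes at E8.5 without overlap, as a covariate and 0 with median centring in place of loess, and it was 2 rises and 1 fall from the Feature Extraction log ratios. At E9.5 the 12 calls became 6 without wild-type replicate 2 and 6 without mutant replicate 2, 5 without the arrays high in Prl4a1 and 7 with Xist as a covariate. Median centring left 1 rise and 0 falls, and the Feature Extraction log ratios gave 2 rises and 1 fall.

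**Figure D1:**
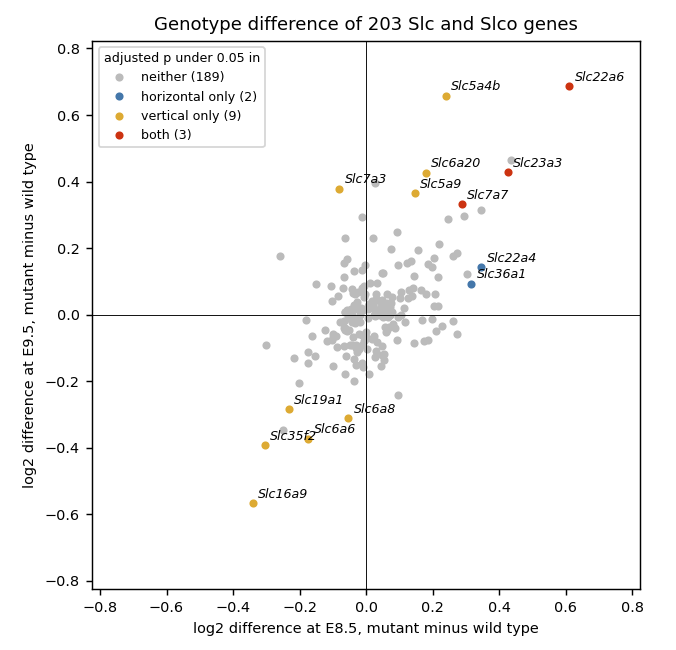
Differences between mutant and wild type in log2 ratio for each of the 203 genes, at E8.5 (horizontal) and E9.5 (vertical), coloured by the stage at which the adjusted p was under 0.05. Slc22a6 lies at 0.61 and 0.69, Slc16a9 at -0.34 and -0.57, and 189 genes passed the threshold at neither stage.

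The promoters of 4 of these genes are shown because Slc22a6 and Slc23a3 rose at both stages, Slc5a4b had the lowest adjusted p at E9.5 and Slc16a9 fell most. Each is the stretch of 250 bases before the annotated start, from RefSeq on GRCm38.p6, written 5′ to 3′ on the gene's strand. Capitals mark GTTAAT, a half-site of the motif of HNF1 factors, which are active in visceral endoderm, kidney and liver.
Slc22a6 (chr19:8617746-8617995, plus strand): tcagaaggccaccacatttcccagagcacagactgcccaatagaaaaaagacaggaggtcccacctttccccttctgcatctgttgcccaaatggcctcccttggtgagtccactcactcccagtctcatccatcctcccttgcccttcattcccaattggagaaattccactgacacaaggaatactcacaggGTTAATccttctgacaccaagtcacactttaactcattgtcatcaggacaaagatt
Slc23a3 (chr1:75133891-75134140, minus strand): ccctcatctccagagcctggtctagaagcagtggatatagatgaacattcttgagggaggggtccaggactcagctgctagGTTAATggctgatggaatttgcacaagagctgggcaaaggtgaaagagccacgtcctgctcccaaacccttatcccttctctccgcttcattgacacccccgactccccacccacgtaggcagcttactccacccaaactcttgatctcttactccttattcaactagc
Slc5a4b (chr10:76111019-76111268, minus strand): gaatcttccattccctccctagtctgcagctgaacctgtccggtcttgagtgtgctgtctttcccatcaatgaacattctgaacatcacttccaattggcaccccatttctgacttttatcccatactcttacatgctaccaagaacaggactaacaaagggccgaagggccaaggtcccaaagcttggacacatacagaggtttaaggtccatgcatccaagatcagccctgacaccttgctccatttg
Slc16a9 (chr10:70245026-70245275, plus strand): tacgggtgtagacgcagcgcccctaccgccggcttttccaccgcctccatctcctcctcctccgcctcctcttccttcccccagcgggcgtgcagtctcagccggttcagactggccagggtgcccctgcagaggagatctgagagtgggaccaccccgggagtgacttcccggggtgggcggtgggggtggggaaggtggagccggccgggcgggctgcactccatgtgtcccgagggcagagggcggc

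The search covered both strands for GTTAAT, for an HNF4 motif (CAAAGTCCA), for a GATA motif (AGATAA) and for a TATA box (TATAAA); none of these overlap in the 4 promoters. GTTAAT lies 56 to 51 bases before the start of Slc22a6 and 169 to 164 bases before that of Slc23a3, and the promoters of Slc5a4b and Slc16a9 hold none of the motifs. Of all 32851 promoters of the same length, 6.43% hold GTTAAT, 0.384% the HNF4 motif, 9.99% the GATA motif and 12.4% the TATA box. Of the 118 genes of the set with 1 promoter entry (159 have at least 1), 6 hold GTTAAT (5.08%), close to the share of all promoters. Slc7a7 has 5 entries and is not shown. The GC content is 48.4% for Slc22a6, 52% for Slc23a3, 48% for Slc5a4b and 70.4% for Slc16a9.

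Among the 18 transporters of organic ions, bile acids and steroids, 2 rose in the mutant at E8.5 and 1 at E9.5. Slc22a6 exchanges organic anions for dicarboxylates at the basolateral membrane of the kidney tubule. Its log2 ratios at E8.5 were 0.48, 0.01 and 0.23 in wild type and 0.90, 0.77 and 0.88 in the mutant. At E9.5 they were 0.83, 0.59 and 0.75 in wild type and 1.42, 1.30 and 1.51 in the mutant. All mutant arrays lay above all wild-type arrays of their stage. The difference was 0.61 ± 0.10 (SE, adjusted p = 0.00668) at E8.5 and 0.69 ± 0.10 (adjusted p = 0.00177) at E9.5, or 1.53-fold and 1.61-fold. The E8.5 call was lost with median centring, without the arrays high in Prl4a1 and with Xist as a covariate, and the E9.5 call with the first 2 of these, with the Feature Extraction log ratios and with the deposited table. Over all 24 alternatives the difference itself ran from 0.49 to 0.92 at E8.5 and from 0.62 to 0.77 at E9.5. Slc22a4, a carrier of ergothioneine and organic cations, was at -1.13, -1.10 and -1.001 in wild type and -0.81, -0.68 and -0.71 in the mutant at E8.5, with no overlap. It rose by 0.35 ± 0.06 (adjusted p = 0.0122), a call lost without wild-type E8.5 replicate 1, mutant replicate 2 or mutant replicate 3. At E9.5 its difference was 0.14 ± 0.06 (adjusted p = 0.38).

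Slc51a, outside the set, moved the other way. At E8.5 it was at -0.62, -0.49 and -0.73 in wild type and -1.52, -1.56 and -1.49 in the mutant, and at E9.5 at 0.34, 0.37 and 0.24 against -0.48, -0.48 and -0.14. It fell by 0.91 ± 0.09 on the log2 scale at E8.5 (adjusted p = 0.000122) and by 0.68 ± 0.09 at E9.5 (adjusted p = 0.000649). The groups did not overlap at either stage. Slco3a1, an organic anion transporter of the prostaglandin and thyroid hormone family, had differences of -0.30 ± 0.09 (adjusted p = 0.13) and -0.09 ± 0.09 (adjusted p = 0.784) between the genotypes and did not pass the threshold.

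Of the 9 transporters of vitamins, choline and haem, Slc23a3 rose at both stages and Slc19a1 fell at E9.5. Slc23a3 belongs to the family of sodium-dependent ascorbate transporters, though its own substrate is not ascorbate. Wild-type arrays read 2.76, 2.44 and 2.61 at E8.5 and mutant arrays 3.05, 3.09 and 2.95. The E9.5 values were 3.23, 3.14 and 3.19 in wild type and 3.47, 3.68 and 3.70 in the mutant. The genotypes did not overlap at either stage, and the differences were 0.43 ± 0.08 at E8.5 (adjusted p = 0.0179) and 0.43 ± 0.08 at E9.5 (adjusted p = 0.0127). Slc19a1, the reduced folate carrier, was at 1.36, 1.29 and 1.20 in wild type and 0.98, 0.94 and 1.08 in the mutant at E9.5, without overlap, and fell by 0.28 ± 0.06 on the log2 scale (adjusted p = 0.03). A second, dimmer probe for Slc19a1 gave 0.04. Single arrays decided these calls. Slc23a3 lost the threshold at E8.5 without wild-type replicate 3 or mutant replicate 1 or 2, and at E9.5 without wild-type replicate 2 or mutant replicate 2 or 3, and Slc19a1 lost it without replicate 1 or 2 of either genotype. 

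Sugar transporters numbered 15, of which 2 rose in the mutant at E9.5 and 0 fell. Slc5a4b belongs to the sodium-glucose cotransporter family; whether its probes also read the paralogue Slc5a4a was not tested. At E8.5 its log2 ratios were 0.19, 0.13 and 0.29 in wild type and 0.37, 0.51 and 0.44 in the mutant. At E9.5 they were 0.30, 0.43 and 0.49 in wild type and 1.06, 1.05 and 1.09 in the mutant. The mutant E9.5 arrays were the highest of the 12 and close to each other. The E9.5 difference was 0.66 ± 0.06 (adjusted p = 6.38e-05), with 0.76, 0.62 and 0.60 in the 3 scans, and the E8.5 difference was 0.24 ± 0.06 (adjusted p = 0.0837). The other 2 probes for the gene gave 0.45 and 0.55 at E9.5. Slc5a4b was well above background on 11 of the 12 arrays and in 3 of the 4 groups, and Cy3 reached that mark on 0 arrays. Its call was lost with the Feature Extraction log ratios. Slc5a9, a sodium-coupled transporter of mannose and glucose, was at 0.00, 0.07 and 0.02 in wild type and 0.38, 0.42 and 0.38 in the mutant at E9.5. It rose by 0.36 ± 0.06 (adjusted p = 0.00341), and its second probe gave 0.16. The call of Slc5a9 was lost with median centring and without the arrays high in Prl4a1.

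Of the 30 amino acid transporters 2 rose at E8.5, and 3 rose and 2 fell at E9.5; with median centring 0 were called at either stage. Slc7a7, which with the heavy chain Slc3a2 exports cationic amino acids across the basolateral membrane, was at 1.25, 1.11 and 1.35 in wild type and 1.52, 1.54 and 1.51 in the mutant at E8.5. At E9.5 it was at 0.95, 0.91 and 1.05 against 1.23, 1.33 and 1.34. The difference was 0.29 ± 0.07 at E8.5 (adjusted p = 0.044) and 0.33 ± 0.07 at E9.5 (adjusted p = 0.0144), with no overlap at either stage. The E8.5 call was lost in 15 of 24 alternatives, among them 8 of the 12 that leave out 1 array, and the E9.5 call without wild-type replicate 1 or 2 or mutant replicate 2 or 3. Slc36a1, a proton-coupled transporter of small amino acids on lysosomes and brush borders, was at 0.27, 0.02 and 0.28 in wild type and 0.47, 0.56 and 0.50 in the mutant at E8.5, a rise of 0.32 ± 0.07 (adjusted p = 0.0319) that was lost without wild-type replicate 2 or any one mutant array.

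At E9.5 the amino acid group changed in both directions. Slc6a20, an imino acid transporter that RefSeq now names Slc6a20b, was at 0.44, 0.26 and 0.37 in wild type and 0.79, 0.70 and 0.86 in the mutant, a rise of 0.43 ± 0.07 (adjusted p = 0.00357). It was well above background in 3 of the 4 groups, and its Cy3 signal on 0 arrays. Slc7a3, a cationic amino acid uniporter, was at -0.37, -0.43 and -0.51 in wild type and 0.06, 0.02 and -0.25 in the mutant, a rise of 0.38 ± 0.08 (adjusted p = 0.0215). Slc6a6, the taurine transporter, was at 0.32, 0.45 and 0.42 in wild type and 0.01, 0.02 and 0.05 in the mutant. It fell by 0.37 ± 0.06 on the log2 scale (adjusted p = 0.00478), though a second, dimmer probe gave -0.04. The creatine transporter Slc6a8 was at -0.67, -0.72 and -0.74 in wild type and -1.09, -1.05 and -0.92 in the mutant. It fell by 0.31 ± 0.06 (adjusted p = 0.0149). In each of the 4 genes the E9.5 groups did not overlap, as the choice of named genes required. The call of Slc7a3 was lost without wild-type replicate 2 or 3 or mutant replicate 1 or 2, and that of Slc6a8 without replicate 1 or 2 of either genotype. With the Feature Extraction log ratios and with median centring all 4 calls were lost. Those of Slc6a20 and Slc6a6 were also lost without the arrays high in Prl4a1, and that of Slc6a6 when its kept probes were averaged. Those of Slc7a3 and Slc6a8 were also lost with the deposited table and with Xist as a covariate. At E8.5 none of the 4 passed the threshold, with differences of 0.18 (Slc6a20), -0.08 (Slc7a3), -0.17 (Slc6a6) and -0.05 (Slc6a8).

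Among the 203 genes the largest fall that passed the threshold in the mutant was in Slc16a9, a member of the monocarboxylate transporter family linked to carnitine. At E8.5 its log2 ratios were 1.93, 1.65 and 1.92 in wild type and 1.52, 1.59 and 1.37 in the mutant, and at E9.5 they were 2.27, 2.21 and 2.29 against 1.61, 1.78 and 1.68. The genotypes did not overlap at either stage. It fell by 0.57 ± 0.08 on the log2 scale at E9.5 (adjusted p = 0.00129), a 1.48-fold difference, and the E8.5 value of -0.34 ± 0.08 lay just outside the threshold (adjusted p = 0.0507). Of 24 alternatives, only median centring took away the E9.5 call. Slc35f2, grouped here with the nucleotide sugar carriers by family number, was at 1.07, 1.05 and 1.30 in wild type and 0.60, 0.70 and 0.95 in the mutant at E9.5. It fell by 0.39 ± 0.09 (adjusted p = 0.0394), a call that 14 of 24 alternatives took away, 8 of them by leaving out 1 array.

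**Figure D2:**
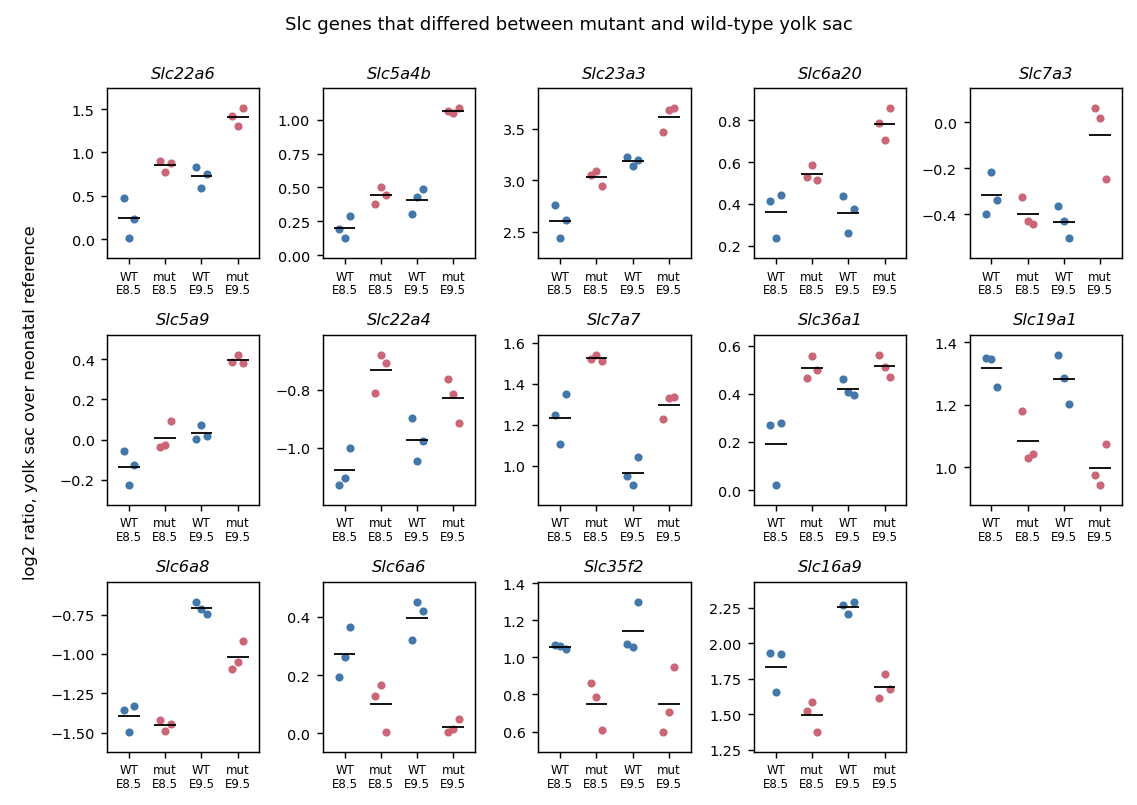
Log2 ratio of yolk sac over neonatal reference on each array (points) with the group mean (black lines, n = 3) for the 14 genes that differed between mutant (red) and wild type (blue) at E8.5 or E9.5; each panel has its own axis. In Slc22a6, Slc23a3 and Slc7a7 the mutant arrays lie above the wild-type arrays at both stages, and in Slc16a9 they lie below.

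None of the 32 mitochondrial carriers, 28 transporters of inorganic ions, 25 metal transporters or 4 nucleoside transporters was called in either genotype comparison by limma. Over all genes 0.703% rose and 0.717% fell at E8.5, and 0.897% and 1.08% at E9.5. The absence of calls in groups of this size thus lies near the general share. Outside the threshold lay Slc34a3, a sodium phosphate cotransporter chosen here after its values were seen, with 0.44 at E8.5 (adjusted p = 0.083) and 0.46 at E9.5 (adjusted p = 0.053). Slc30a2, a zinc transporter of vesicles, lies within 5 Mb of Arid1a on chromosome 4, 19 genes away. It differed by 0.13 ± 0.08 at E8.5 (adjusted p = 0.548) and 0.16 ± 0.08 at E9.5 (adjusted p = 0.468) and did not pass the threshold.

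Marker genes of the tissue's layers were set beside these results. A list's level on an array is the mean deviation of its genes from their own 12-array means, on the log2 scale. Of 8 visceral endoderm markers 0 were called between the genotypes, and the list's level ran from -0.39 to -0.12 in wild type and -0.26 to -0.21 in the mutant at E8.5, and from 0.19 to 0.36 and 0.03 to 0.32 at E9.5. Of 5 measured mesoderm and mesothelium markers 3 rose in the mutant at E8.5 (Col1a1 by 0.77, Col3a1 by 0.61 and Pdgfra by 0.37), and the list's level was -0.50 to -0.37 in wild type and -0.10 to 0.07 in the mutant. At E9.5 none of the 5 was called. Of 4 measured trophoblast markers 1 fell at each stage, with levels of -0.42 to -0.12 in wild type and -0.55 to 1.67 in the mutant at E8.5, and -0.53 to 1.17 and -0.72 to 0.98 at E9.5. Tpbpa, Ascl2 and Prl2c2 were not found among the genes measured. Of 3 measured embryo markers 0 were called between the genotypes, and the level reached 1.54 in wild-type E8.5 replicate 2. T, Sox1 and Neurog2 were not found among the genes measured. Of 3 measured decidua and leukocyte markers 0 were called between the genotypes. The level of that list was -0.24 to 0.14 in wild type and -0.67 to 0.28 in the mutant at E8.5. At E9.5 it was -0.20 to 0.41 and -0.23 to 0.60. Of 6 blood and 6 endothelial markers, 1 endothelial marker rose at E8.5. Over all genes, at most 1.08% were called in either direction at either stage. Counts of 0 in lists this small thus lie near the general share. The part of these tissues in the transporter differences was not tested, and in bulk RNA fewer cells of a type and less RNA per cell cannot be told apart.

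Between E8.5 and E9.5 many more transporter genes changed than between the genotypes. The genes that rose in both genotypes included Slc22a2 (organic cations), Slc6a13 (GABA, taurine and betaine), Slc7a9 (cystine), Slc37a4 (glucose 6-phosphate), Slc39a4 (zinc) and Slco2a1 (prostaglandins). Slco3a1 and Slc38a5 (glutamine), the mitochondrial pyrimidine nucleotide carrier Slc25a33, the lactate transporter Slc16a1 and the nucleoside transporter Slc29a1 fell in both.

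Slc25a4, Slc20a2, Slc26a1, Slc26a6, Slc31a1, Slc39a5 and Slc5a11 are named below after their values were seen. In wild type 47 of the 203 genes rose (23.2%) and 11 fell (5.42%), where 12.7% of all genes rose and 10.7% fell. In the mutant 43 rose (21.2%) and 14 fell (6.9%), against 10.9% and 10.5% of all genes. The counts by substrate group below stand beside these shares of all genes, and no group was tested against them. The median difference of the 203 genes was 0.06 in wild type and 0.05 in the mutant, beside -0.0095 and -0.0088 over all genes. The 2 comparisons share no yolk sac arrays, but they share the common reference and each gene's estimate of spread over all 12 arrays. Both called 29 of the same genes as risen (61.7% of the wild-type rises and 67.4% of the mutant rises) and 10 as fallen (90.9% and 71.4%), and 0 in opposite directions. These calls are thus not independent, and the same overlap over all genes was not counted. Genes not well above background in every group made up 7 of the 47 and 4 of the 43 rises. With median centring in place of loess the medians over all genes moved to 0.11 in wild type and 0.14 in the mutant, and the counts were 32 risen and 3 fallen in wild type and 43 and 2 in the mutant. Under that scaling the falls of Slco3a1 and Slc25a33 passed in both genotypes and that of Slc7a6 in wild type, and the other falls named below did not.

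**Figure D3:**
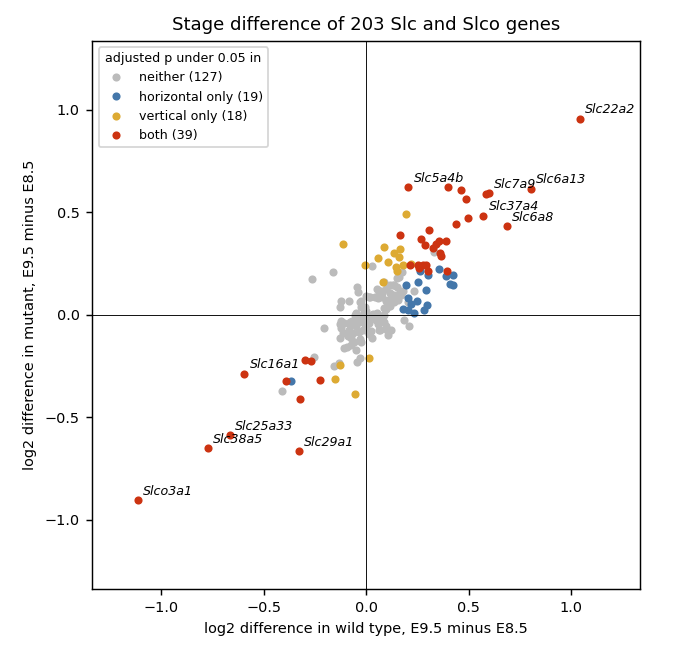
Differences between E9.5 and E8.5 in log2 ratio for each of the 203 genes in wild type (horizontal) and mutant (vertical), coloured by the genotype in which the adjusted p was under 0.05. Slc22a2 lies highest at 1.04 and 0.96 and Slco3a1 lowest at -1.11 and -0.91, and 39 genes passed the threshold in both genotypes.

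Of the 18 organic ion and bile acid transporters, 3 rose and 1 fell in each genotype. Slc22a2, the organic cation transporter OCT2 of the kidney, rose most. It was at 1.71, 1.00 and 1.52 in wild type and 1.72, 1.63 and 1.66 in the mutant at E8.5, and at 2.40, 2.40 and 2.55 and 2.62, 2.66 and 2.59 at E9.5. The lowest value was that of wild-type E8.5 replicate 2, the array high in Myl7. The rise was 1.04 ± 0.13 in wild type (adjusted p = 6.05e-05) and 0.96 ± 0.13 in the mutant (adjusted p = 0.000131). Slc22a6 rose by 0.49 ± 0.10 (adjusted p = 0.00306) and 0.56 ± 0.10 (adjusted p = 0.00124). Slco2a1, a prostaglandin uptake transporter, rose by 0.46 ± 0.08 and 0.61 ± 0.08 (adjusted p = 0.000809 and 0.000108), but its second, dimmer probe gave 0.07 and 0.05. Slco3a1 was at -0.20, -0.52 and -0.29 in wild type and -0.61, -0.50 and -0.80 in the mutant at E8.5, and at -1.53, -1.41 and -1.41 and -1.50, -1.48 and -1.64 at E9.5. It fell by 1.11 ± 0.09 on the log2 scale in wild type (adjusted p = 1.74e-06), or 2.16-fold, and by 0.91 ± 0.09 in the mutant (adjusted p = 1.06e-05). Slc51a rose by 0.93 ± 0.09 and 1.15 ± 0.09.

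Amino acid transporters moved both ways: 6 rose and 4 fell in wild type, and 11 rose and 4 fell in the mutant. Slc6a13 was at -1.22, -1.21 and -1.29 in wild type at E8.5 and -0.30, -0.54 and -0.48 at E9.5. The mutant arrays read -1.02, -1.02 and -1.04 and then -0.42, -0.43 and -0.39. The rise was 0.80 ± 0.06 in wild type (adjusted p = 9.23e-07) and 0.61 ± 0.06 in the mutant (adjusted p = 1.05e-05), and a second probe gave 0.66 and 0.53. Slc6a8 rose by 0.69 ± 0.06 in wild type (adjusted p = 4.85e-06) and by 0.43 ± 0.06 in the mutant. Slc7a9, the light chain of the brush border cystine transporter, rose by 0.60 ± 0.10 and 0.59 ± 0.10. Slc6a18, a renal neutral amino acid transporter, rose by 0.62 ± 0.06 in the mutant (adjusted p = 1.07e-05) and by 0.40 ± 0.06 in wild type (adjusted p = 0.000399). Its 2 other, dimmer probes gave 0.38 and 0.14 in the mutant and 0.33 and 0.23 in wild type. Slc7a8, an exchanger of neutral amino acids, rose by 0.49 ± 0.14 in the mutant (adjusted p = 0.0198), a call lost without any one of mutant E8.5 replicates 2 and 3 or E9.5 replicate 3.

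Slc38a5, a sodium-coupled glutamine and asparagine transporter, was at 1.48, 1.51 and 1.44 in wild type at E8.5 and at 0.71, 0.66 and 0.73 at E9.5, where it fell by 0.77 ± 0.14 on the log2 scale (adjusted p = 0.00126). In the mutant it read 1.29, 1.69 and 1.67 and then 1.29, 0.84 and 0.57, so that replicate 1 was the same at both stages. Slc7a6, another cationic amino acid exchanger light chain, fell by 0.39 ± 0.05 in wild type and 0.32 ± 0.05 in the mutant. Slc7a7 fell by 0.27 ± 0.07 in wild type and by 0.22 ± 0.07 in the mutant (adjusted p = 0.0234). Slc7a7 was thus lower at E9.5 than at E8.5 in both genotypes and higher in the mutant than in wild type at either stage. Slc43a1, a branched-chain amino acid uniporter, fell by 0.37 ± 0.12 in wild type (adjusted p = 0.0437), a call lost in 13 of 24 alternatives, and Slc1a5, a neutral amino acid exchanger, by 0.31 ± 0.06 in the mutant (adjusted p = 0.00188).

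Of the 15 sugar transporters 6 rose in wild type and 4 in the mutant, and 0 fell. Slc37a4, the endoplasmic reticulum glucose 6-phosphate carrier used by gluconeogenic epithelia, was at -0.78, -0.94 and -0.79 in wild type at E8.5 and -0.22, -0.24 and -0.32 at E9.5. It rose by 0.57 ± 0.07 (adjusted p = 6.86e-05), and by 0.48 ± 0.07 in the mutant (adjusted p = 0.000283). Slc5a4b rose by 0.62 ± 0.06 in the mutant (adjusted p = 1.22e-05) and by 0.20 ± 0.06 in wild type (adjusted p = 0.0299), a wild-type call lost in 10 of 22 alternatives, 4 of them by leaving out 1 wild-type array. Slc5a11, a sodium-coupled inositol transporter counted apart from the sugars, rose in both genotypes by 0.36 ± 0.10.

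Of the 25 metal transporters 7 rose and 1 fell in wild type, and 6 rose and 1 fell in the mutant. Slc39a4, the zinc importer of absorptive brush borders, was at 1.83, 1.497 and 1.73 in wild type at E8.5 and 2.20, 2.17 and 2.18 at E9.5, a rise of 0.50 ± 0.08 (adjusted p = 0.000563). The zinc transporter Slc39a5 and the copper importer Slc31a1 rose in both genotypes. Slc30a10, a manganese exporter, fell by 0.32 ± 0.07 in wild type and by 0.41 ± 0.07 in the mutant, with -0.09 and -0.11 from a second probe. Of 28 transporters of inorganic ions, 8 rose in wild type and 3 in the mutant, and 0 fell. The anion exchangers Slc26a1 and Slc26a6 and the phosphate transporter Slc20a2 rose in both.

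The 9 vitamin and choline transporters gave 3 rises in wild type and 4 in the mutant, and 0 falls. Slc23a3 rose by 0.58 ± 0.08 in wild type (adjusted p = 0.000203) and 0.59 ± 0.08 in the mutant (adjusted p = 0.00021), and the ascorbate transporter Slc23a1 rose in both. Slc44a4, which carries choline and a thiamine derivative, rose by 0.44 ± 0.11 in wild type (adjusted p = 0.0104), a call lost without wild-type E9.5 replicate 1. Slc16a1, the lactate and pyruvate transporter MCT1, was at 3.59, 3.34 and 3.60 in wild type at E8.5 and 2.88, 2.89 and 2.99 at E9.5. It fell by 0.60 ± 0.08 on the log2 scale (adjusted p = 0.000181), and the other probes gave -0.69 and -0.51. In the mutant it fell by 0.29 ± 0.08 (adjusted p = 0.022), a call lost without mutant E8.5 replicate 1, E9.5 replicate 1 or E9.5 replicate 3.

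Mitochondrial carriers, 32 genes, gave 7 rises and 2 falls in wild type and 6 and 2 in the mutant. Slc25a33 was at -0.80, -0.79 and -0.71 in wild type at E8.5 and -1.46, -1.45 and -1.38 at E9.5, and fell by 0.66 ± 0.05 on the log2 scale (adjusted p = 1.74e-06). In the mutant it fell by 0.59 ± 0.05 (adjusted p = 4.93e-06), and its second probe gave -0.26 and -0.37. The adenine nucleotide carriers split: Slc25a5, the form of proliferating cells, fell and Slc25a4, the form of muscle and heart, rose in both genotypes. Of the 4 nucleoside transporters, Slc29a1, the equilibrative transporter ENT1, fell by 0.67 ± 0.11 in the mutant (adjusted p = 0.000637) and by 0.33 ± 0.11 in wild type (adjusted p = 0.0413; lost in 11 of 24 alternatives, 6 of them by leaving out 1 array), and the concentrative transporter Slc28a2 fell by 0.39 ± 0.07 in the mutant (adjusted p = 0.00138). Among the 20 nucleotide sugar and Golgi transporters, 4 rose and 1 fell in wild type and 4 rose and 3 fell in the mutant. The carrier of UDP-N-acetylglucosamine Slc35a3 fell in both, by 0.30 ± 0.07 in wild type (-0.07 from a second probe), and Slc35d1, a carrier of UDP-glucuronic acid, fell by 0.24 ± 0.06 in the mutant, a call lost without mutant E8.5 replicate 2.

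**Figure D4:**
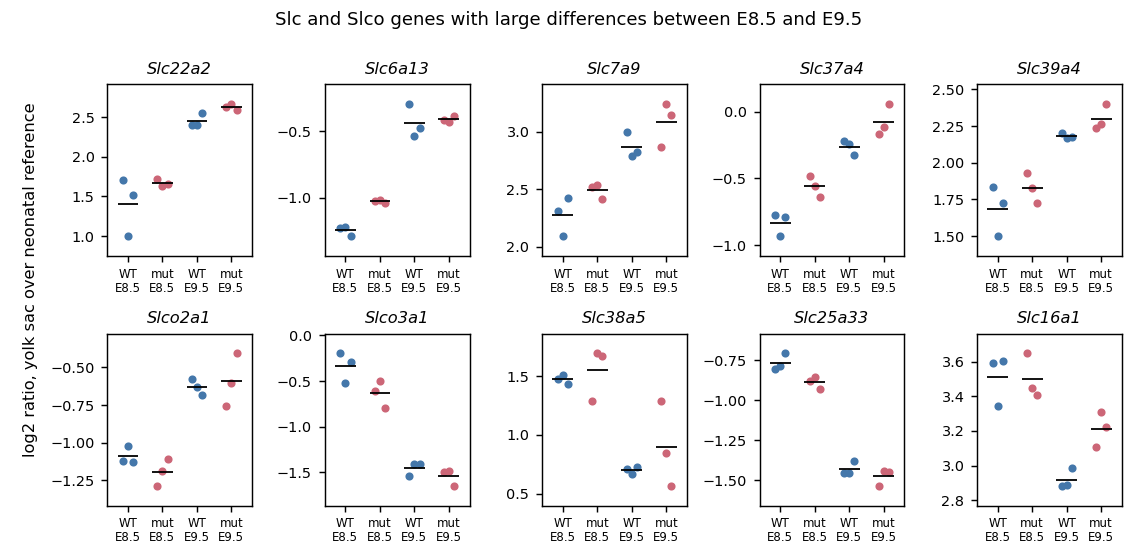
Log2 ratio of yolk sac over neonatal reference on each array (points) with the group mean (black lines, n = 3) for 10 genes with large differences between E8.5 and E9.5; wild type is blue, mutant is red, and each panel has its own axis. Slc22a2 rises from a mean of 1.41 to 2.45 in wild type and Slco3a1 falls from -0.34 to -1.45.

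The markers moved with stage as well. Over all genes, 12.7% rose and 10.7% fell with stage in wild type and 10.9% and 10.5% in the mutant. Of the 8 visceral endoderm markers 4 rose and 0 fell in each genotype, and the list's level did not overlap between the stages in either. How often other lists of this size do so was not tested. The level of the mesoderm list rose from between -0.50 and -0.37 to between 0.17 and 0.26 in wild type, with 2 of 5 markers risen, and 2 of 6 blood markers fell in each genotype. The part of the endoderm, mesoderm and blood in the stage differences of the transporters was not tested. Without the 3 arrays high in Prl4a1, 48 genes changed in wild type and 30 in the mutant. With the level of Xist as a covariate the counts were 45 and 30. Calls over all genes under these settings were not set beside these counts, so a loss particular to the transporters is not shown.

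The neonatal reference is a mixture of all tissues of the newborn, and the ratio to it sets each gene's yolk sac level against that mixture. Slc13a4, a sodium sulfate cotransporter, stood highest, followed by Slc16a1, Slc4a7, Slc23a3 and Slc2a2, the glucose transporter of liver, gut and kidney. Slc2a4, the insulin-responsive glucose transporter of muscle and fat, stood lowest, with Slc36a2 and the neuronal Slc12a5 and Slc32a1. Since dyes were not swapped and genes were chosen on the Cy5 signal, these ratios are a description with no test.

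Averaged over the 12 arrays, 35 of the 203 genes were at least 2-fold higher in the yolk sac (17.2%) and 18 at least 2-fold lower (8.87%), beside 10.1% and 13.8% of all genes. The median log2 ratio was 0.14 for the 203 genes and 0.06 for all. With a background offset of 10 in place of 50 the counts were 60 and 34, and with the Feature Extraction log ratios 76 and 36. The ratio also depends on the probe: of the 13 higher genes with another detected probe, all other probes agreed in sign for 12 and passed 2-fold for 5, and of the 4 lower genes for 3 and 0. For 7 genes no array had a Cy3 signal well above background, and their ratio is a lower bound, at least 1.70-fold for Slco1a6, 1.60-fold for Slc25a43 and 1.44-fold for Slc5a4b.

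The 12 arrays read 3.55 to 4.18 for Slc13a4, with a mean of 3.84. Slc16a1 ranged from 2.88 to 3.65 (mean 3.29), and its other 2 probes gave 3.33 and 2.02. Slc4a7, a sodium bicarbonate cotransporter, ranged from 2.74 to 3.73 (mean 3.20), but its other 2 probes, far dimmer in Cy5, gave -0.14 and -0.68, so that the sign depends on the probe. Slc2a2 ranged from 2.63 to 3.13 (mean 3.01, second probe 1.95). Slc7a8 and Slc7a9, both light chains of epithelial amino acid exchangers, had means of 2.69 and 2.68, and Slc3a2, the heavy chain that partners Slc7a8, had 1.21 (0.60 from a second probe). The zinc and manganese importer Slc39a8 had a mean of 2.59, with 1.57 and 0.30 from other probes, and Slc27a3, of the fatty acid transport family, 2.29. The ascorbate transporter Slc23a1 had 2.09 with 1.87 from a second probe.

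At the low end Slc2a4 ranged from -3.41 to -2.94 (mean -3.25). Slc36a2, an imino acid and glycine transporter, had a mean of -2.63, the neuronal potassium-chloride cotransporter Slc12a5 -2.53 and the vesicular GABA transporter Slc32a1 -2.37. The glutamate transporter Slc1a3 had -1.35, with -0.09 from a second probe. Slc39a6, Slco2b1 and the hepatic bile acid importer Slc10a1 had -1.72, -1.62 and -1.62, and Slc10a1 was well above background in 1 group only. Slc38a2, a neutral amino acid transporter, had -1.25, but 1 of its other 3 probes gave 1.22. None of these ranges crossed 0 over the 12 arrays.

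By substrate group the median log2 ratio was highest for the 10 monocarboxylate and dicarboxylate transporters (1.02, with 5 at least 2-fold higher and 1 lower) and for the 9 vitamin and choline transporters (0.76, with 4 and 1). It was 0.26 for inorganic ions, 0.38 for nucleotide sugars, 0.10 for metals, 0.04 for mitochondrial carriers, 0.01 for amino acids, -0.0087 for sugars and -0.08 for organic ions and bile acids. The widest range within a group was that of the sugar transporters, from Slc2a4 to Slc2a2. Groups of fewer than 10 genes are small, and groups were not tested against each other.

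**Figure D5:**
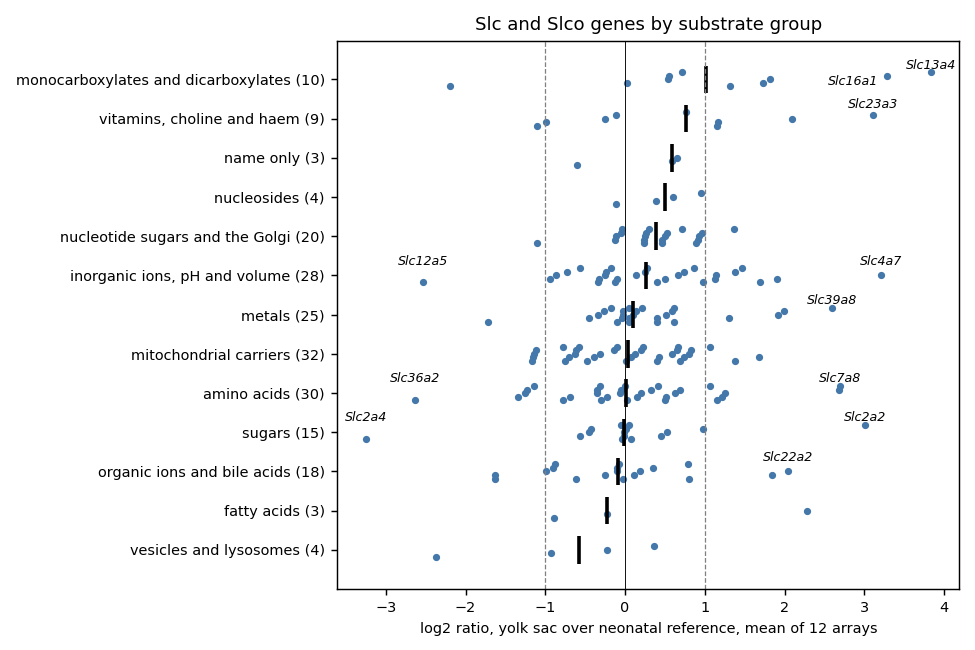
Mean log2 ratio of yolk sac over neonatal reference over 12 arrays for each gene (points), by substrate group with the number of genes in brackets; black bars are group medians and dashed lines mark 2-fold. Groups with a single gene are not drawn; Slc13a4 lies at 3.84 and Slc2a4 at -3.25.

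Other transport genes were counted beside the solute carriers. Over all genes, 12.7% rose and 10.7% fell with stage in wild type and 10.9% and 10.5% in the mutant. Between the genotypes 0.703% rose and 0.717% fell at E8.5, and 0.897% and 1.08% at E9.5. In lists of this size a few calls with stage, and 0 between the genotypes, thus lie near the general share. Of 29 measured ABC transporters 0 were called between the genotypes at either stage by limma, and 4 rose and 2 fell with stage in wild type and 5 and 5 in the mutant. Of 6 measured aquaporins 0 were called between the genotypes and 1 fell with stage in each genotype. Of 10 measured sodium pump subunits, which maintain the gradient that many solute carriers use, 1 fell in the mutant at each stage, and 2 rose with stage in wild type and 1 in the mutant. Of 9 measured endoderm regulators 1 rose in the mutant at E8.5. Of the 12 Slc genes left out by name, 1 rose in the mutant at E9.5, and 4 rose and 2 fell with stage in each genotype.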

How the data were processed

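Yolk sac RNA was measured in 12 samples on 2-colour Agilent arrays (45018 spots, of which 1639 were controls). Per the file headers, the authors extracted intensity values with Agilent Feature Extraction 9.5.1.1, as mean signal and median local background per channel and as processed intensity, and the deposited files give a log10 ratio of processed Cy5 over Cy3. The authors also deposited a table for the whole series, with log2 ratios for 19007 of the probes kept here; it matched the per-array ratios once these were centred on each probe's median (r of at least 0.9997, same direction, column medians of -0.0063 to 0.0041), and no source used here gives how its entries were chosen. The files' flags for spots well above background are 0 or 1.

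In R 4.3.3 with limma 3.58.1, background was corrected by normexp with an offset of 50, and loess then normalized the ratios of each array, with weight 0 for control spots. Outlier-flagged spots and spots over 20 units below local background were set to missing. Probes well above background in Cy5 on all 3 arrays of a group were kept (20049), and the brightest stood for a gene. A mean for each of the 4 groups was fitted (8 residual and 6.22 prior degrees of freedom). Symbols were matched to RefSeq for 185 genes by accession and 18 by symbol. Figures were drawn with matplotlib. Replicates are biological per the labels.

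The genes, substrate groups, marker lists and tests were chosen with earlier results of these data known. Named were up to 10 genes with the largest rise and 10 with the largest fall per comparison among called genes whose groups did not overlap, the genes Slc22a6, Slc5a4b, Slc51a and Slco3a1, the 10 highest and 10 lowest against the reference, the extremes of each substrate group and genes near Arid1a. Alternatives were other scalings, filters, probe choices, arrays left out, a replicate block, array weights and the deposited table. The fit was also run on simulated data, but the outcome is not given here and is no support for the calls. Values of 2 genes that the rule would name are not reported here. Each replicate number is also 1 scan, per the file headers. Arrays with the same number deviated together (correlation above 0.1) in every pair of the E9.5 comparison and of both stage comparisons. At E8.5 they did so in 2 of 3 pairs (the other 0.076). The differences, SE and adjusted p given above come from the fit without pairing. The replicate number entered only as a block among the alternatives. Over all groups 16 of 18 pairs passed 0.1 (lowest -0.006, median 0.23).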

Additional observations from a re-analysis of the deposited data

How the results depend on the processing

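The number of Slc genes called between genotypes at E8.5 (5) was 3 with the Feature Extraction log ratios, 0 with median centring, 3 with an offset of 10, 2 when only the groups compared were fitted, 10 with array weights, 0 without the 3 arrays high in Prl4a1 and 0 with Xist as a covariate. At E9.5 (12) it was 3 with the Feature Extraction log ratios, 1 with median centring, 4 with the deposited table, 5 without the arrays high in Prl4a1 and 7 with Xist as a covariate. Leaving out 1 array in turn gave 1 to 6 at E8.5, 6 to 16 at E9.5, 44 to 60 for the stage in wild type and 40 to 63 in the mutant. The stage count was 35 in wild type (58) with median centring, and 30 in the mutant (57) both without the arrays high in Prl4a1 and with Xist as a covariate. The counts against the reference (35 higher, 18 lower) were 76 and 36 with the Feature Extraction log ratios and 60 and 34 with an offset of 10, which compresses ratios less. The causes of the other shifts were not tested. Calls over all genes under each setting were not set beside these counts. The difference between the mutant effects gave 0 calls in every setting run. No named call changed sign in any of the alternatives. All 5 named calls at E8.5, all 12 at E9.5, 9 of 21 for the stage in wild type and 10 of 20 in the mutant lost the threshold in at least 1.

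With the replicate number as a block, which here is also the scan, the counts were 7, 12, 63 and 62 for E8.5, E9.5, and the stage in wild type and mutant. No named call changed under the block. The 3 arrays a group limit the precision, and 27 of the 203 genes were not well above background in every group.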
